A study of Mus musculus with 4 samples.

Results

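The genes described are 10 members of the network of PGC-1 coactivators, oestrogen-related receptors (ERRs) and peroxisome proliferator-activated receptors (PPARs), out of 20807 autosomal protein-coding genes. They were taken by name: the coactivators *Ppargc1a* and *Ppargc1b*, the receptors *Esrra*, *Esrrg*, *Ppara*, *Ppard* and *Pparg*, the corepressor *Nrip1*, and the mitochondrial regulators *Tfam* and *Nrf1*. A peak was counted for a gene when it overlapped the gene body or the 5 kb on either side of it on mm10, and 92 of 93418 peaks did so. Histone 3 phosphorylated at serine 10 (H3S10ph) was mapped by ChIP-seq in gastrocnemius muscle of 5 month old male C57BL/6 mice, with 2 samples per condition and muscles of 6 mice pooled in each sample. Stimulated muscles made 50 eccentric contractions, in which the foot was flexed at 40 mm/s during a 600 ms tetanus at 100 Hz, with pauses of 30 s, and were collected immediately afterwards. Unstimulated muscles were the contralateral ones of these mice, which made no contractions. The conditions thus share mice, but which pools do is not stated, and the tests were unpaired. The lists record where the mark was called and do not measure expression, so whether these genes responded to exercise in these mice was not measured.

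PGC-1 coactivators do not bind DNA themselves. They dock on transcription factors, among them the ERRs and PPARs, and switch on genes for mitochondrial respiration and fatty acid oxidation, while the corepressor RIP140, the product of *Nrip1*, acts on the same receptors in the opposite direction. NRF1, nuclear respiratory factor 1, drives nuclear genes of the respiratory chain and *Tfam*, whose product packages and transcribes mitochondrial DNA. In muscle this network is known for its part in endurance adaptation, and H3S10ph outside mitosis is best known from genes that respond rapidly to signalling kinases.

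The lists differed several-fold in length before any gene was looked at. They held 9094 and 32740 peaks in unstimulated replicates 1 and 2, and 10901 and 40683 peaks in stimulated replicates 1 and 2. Unstimulated replicate 1 also stood apart in another way. It held 522 peaks on chromosome X and none on chromosome Y, against 19, 19 and 16 on X and 7, 6 and 6 on Y in the other lists (unstimulated replicate 2, stimulated replicates 1 and 2), although the labels give male mice for all samples. The median GC content of its autosomal peaks was 38.1%, against 43.9%, 44.5% and 44.5%. The sums over the 10 genes and the counts of genes at which the conditions separated are therefore given without it as well, and none of the 10 genes lies on a sex chromosome. The windows of 8 skeletal muscle marker genes were covered 7.91, 17.1, 32.5 and 14.3 times as densely as all gene windows in the 4 lists (unstimulated 1 and 2, stimulated 1 and 2, the order used throughout). Of this covered length, 86.3%, 85.6%, 89.7% and 94.2% was at *Ttn* and *Myh4*, and 5, 1, 2 and 2 of the 8 genes were without a peak. *Myh2* had a peak in unstimulated replicate 2 alone, and *Ckm* covered 2604 bp in unstimulated and 0 bp in stimulated replicate 2. The windows of 4 adipocyte markers were at 0, 0.361, 0 and 0.713 times, of 4 endothelial markers at 0, 0.463, 0.538 and 1.12 times, and of 4 macrophage markers at 0, 0.242, 0 and 1.07 times the density of all gene windows. The 4 fibroblast markers were at 0, 1.12, 4.65 and 0.412 times and the 3 satellite cell markers at 0, 0.195, 0.995 and 1.01 times. Among these marker sets, peaks were thus densest at the skeletal muscle set in every list, mainly at *Ttn* and *Myh4*, and since whole muscle was used, more nuclei with the mark and more mark per nucleus cannot be told apart.

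The stimulated lists shared a position at 2 of the 10 genes, beside 1.34% of all genes. The second replicates of the 2 conditions shared one at 1 of the 10, beside 2.89%. A stretch of each kind is shown here. The *Ppard* stretch was called in the stimulated lists alone and the *Ppargc1a* stretch in the longer list of each condition. Each is the middle 300 bases of the shared stretch, in lower case, read on the plus strand of the RefSeq genome GRCm38.p6. They lie at chr17:28270320-28270619 and chr5:51514428-51514727, both in introns, and neither holds any of the motifs that were searched in the peaks.
Ppard: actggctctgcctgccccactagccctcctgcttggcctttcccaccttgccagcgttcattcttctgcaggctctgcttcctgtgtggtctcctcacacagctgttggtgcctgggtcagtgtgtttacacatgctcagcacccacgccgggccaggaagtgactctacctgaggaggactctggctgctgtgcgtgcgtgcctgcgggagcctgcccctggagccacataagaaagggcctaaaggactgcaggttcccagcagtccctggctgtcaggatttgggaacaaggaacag
Ppargc1a: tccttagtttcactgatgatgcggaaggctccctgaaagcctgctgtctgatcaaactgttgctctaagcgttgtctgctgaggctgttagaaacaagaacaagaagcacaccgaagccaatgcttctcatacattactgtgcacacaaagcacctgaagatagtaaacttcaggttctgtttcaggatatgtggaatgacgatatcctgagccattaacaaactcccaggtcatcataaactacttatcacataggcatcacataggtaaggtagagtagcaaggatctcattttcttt

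The 10 genes together carried more peaks in stimulated replicate 2 than in any other list, also when the length of the lists was allowed for. There were 6 and 16 peaks in the unstimulated lists and 9 and 61 in the stimulated lists, or 0.0660%, 0.0489%, 0.0826% and 0.150% of all peaks. The covered length was 2.72 and 10.6 kb in unstimulated muscle (mean 6.67 ± 5.59 kb, SD, n = 2) and 4.71 and 37.9 kb in stimulated muscle (21.3 ± 23.4 kb, SD, n = 2). The ratio of the means was 3.19, against 1.66 over all gene windows, but stimulated replicate 1 lay below unstimulated replicate 2, so the conditions overlapped.

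Gene length was taken into account by dividing the covered length by the length of the windows, which summed to 1.40 Mb. This gave 1.94 and 7.57 bp per kb in the unstimulated lists and 3.35 and 27.0 bp per kb in the stimulated lists. All autosomal gene windows together had 1.96, 7.57, 2.63 and 13.2 bp per kb. Relative to them the density at the 10 genes was 0.986 and 0.999 in unstimulated muscle (0.993 ± 0.00897, SD, n = 2) and 1.27 and 2.04 in stimulated muscle (1.66 ± 0.542, SD, n = 2). In unstimulated muscle the genes were thus covered like the average gene window, and in both stimulated lists more densely. This did not hold among the 19 peaks with a −log10 p of at least 2.5, where the relative density was 0.985 and 1.32 in unstimulated and 0.975 and 2.14 in stimulated muscle. The ratio of the condition means of this relative density was 1.67, and those of peak number and covered length were 3.18 and 3.19. Without unstimulated replicate 1 they were 1.66, 2.19 and 2.00, and without stimulated replicate 2 they were 1.28, 0.818 and 0.706. No p-value is given for these sums, since the genes were chosen as a group.

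*Esrrg* alone made up 43.9% of the window length, so the length of a gene matters for this comparison. The other 9 genes without it were at 0.871, 0.911, 1.59 and 2.52 times the density of all gene windows. By window length, 7 of the genes fall in the class of 50 to 150 kb, which had 2.16, 7.80, 2.68 and 15.3 bp per kb over its 4306 genes. The median over the 10 genes was 0, 3.73, 2.63 and 36.7 bp per kb, beside 0, 5.21, 0 and 12.3 bp per kb over this class and 0, 0, 0 and 5.74 bp per kb over all 20807 genes. In stimulated replicate 2 the 10 genes had 6.1 peaks per gene on average, against 2.18 in this class and 6.49 in the 1544 genes with windows over 150 kb.

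**Figure D1:**
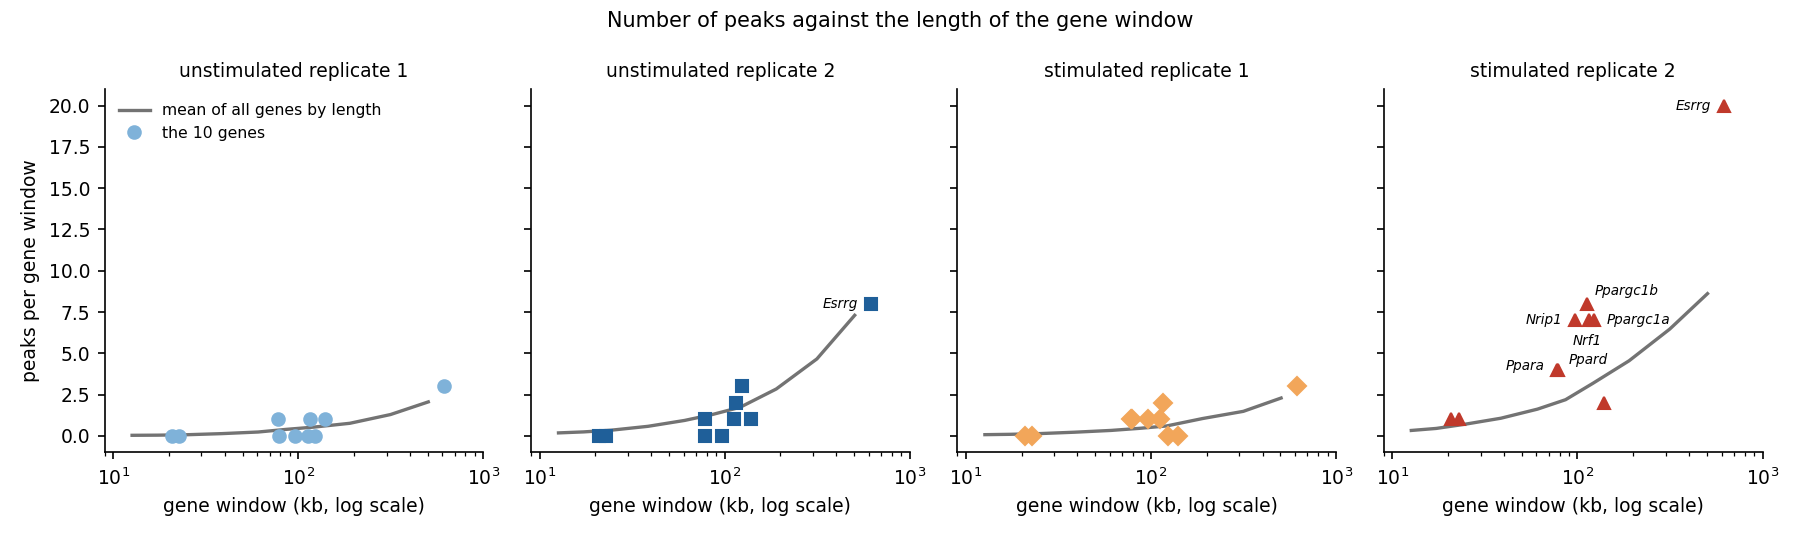
Number of H3S10ph peaks per gene window (vertical axis) against window length in kb (gene body and 5 kb on either side, logarithmic axis) in each of the 4 lists, with the 10 genes as points and the mean over all autosomal protein-coding genes by length as a grey line. In stimulated replicate 2 the points of *Ppargc1b* (8 peaks) and of *Ppargc1a*, *Nrip1* and *Nrf1* (7 peaks each) lie above the line, *Pparg* (2 peaks) lies below it, and *Esrrg* (20 peaks) lies past its right end.

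A peak was present at 4 and 6 of the 10 genes in the unstimulated lists and at 6 and 10 in the stimulated lists. The shares of all autosomal protein-coding genes with a peak were 14.2%, 41.4%, 21% and 55.3%, and they were higher for longer genes. For the 7 genes of the 50 to 150 kb class the counts were 3, 5, 5 and 7, beside 25.6%, 68.7%, 33.8% and 82.4% of that class. *Esrrg* and *Nrf1* had a peak in all 4 lists, as did 4.81% of all genes, 42.1% of those with windows over 150 kb like *Esrrg* and 6.78% of the 50 to 150 kb class of *Nrf1*. None of the 10 was without a peak in every list, where 27.9% of all genes were, but 4.25% of the 50 to 150 kb class. Across all genes, presence was more frequent in the longer lists and at the longer genes.

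The conditions separated completely at few of the genes. Only at *Nrip1* did both stimulated lists hold a peak and neither unstimulated list, a pattern that 4.06% of all genes and 6.11% of the 50 to 150 kb class had. The reverse pattern, seen at 0.908% of all genes, was seen at 0 of the 10. The covered length was larger in both stimulated lists than in both unstimulated lists at *Ppargc1b*, *Ppard* and *Nrip1*, 3 of 10 genes, beside 7.09% of all genes and 13.4% of the 50 to 150 kb class. With peaks of −log10 p of at least 2.5 alone, *Ppargc1b* was not among them. Covered length was larger in both unstimulated lists at 0 of the 10 and at 1.8% of all genes. Without unstimulated replicate 1, peaks were called at 2 of the 10 (*Ppara* and *Nrip1*) in each stimulated list and not in unstimulated replicate 2. The shares with this pattern were 4.83% of all genes and 8.43% of the 50 to 150 kb class. At 0 of the 10 was a peak then in the unstimulated list only, beside 10.4% of all genes. The same 3 genes and *Ppara*, 4 of the 10, were then more covered in both stimulated lists, beside 7.74% and 15.4%, and *Pparg* was more covered in the remaining unstimulated list, beside 21.1% and 27.8%. Between the 2 longest lists, 9 of the 10 genes had more covered length in stimulated replicate 2 than in unstimulated replicate 2, beside 45.3% of all genes. Of these, 6 were among the 7 in the 50 to 150 kb class, beside 63.7% of it. The others were *Esrra* and *Tfam*, beside 47.5% of the 20 to 50 kb class, and *Esrrg*, beside 64.1% of the genes with windows over 150 kb. Between the 2 shorter lists, 5 had more in stimulated replicate 1 than in unstimulated replicate 1, beside 18.1% of all genes. These were 4 of the 7 in the 50 to 150 kb class, beside 29.1% of it, and *Esrrg*, beside 50.8% of the genes with windows over 150 kb. For a single gene, an exact two-sided permutation test of 2 against 2 samples cannot give a p below 0.333, which is above 0.05, and with Benjamini-Hochberg adjustment over all 20807 genes every p was 1.

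**Figure D2:**
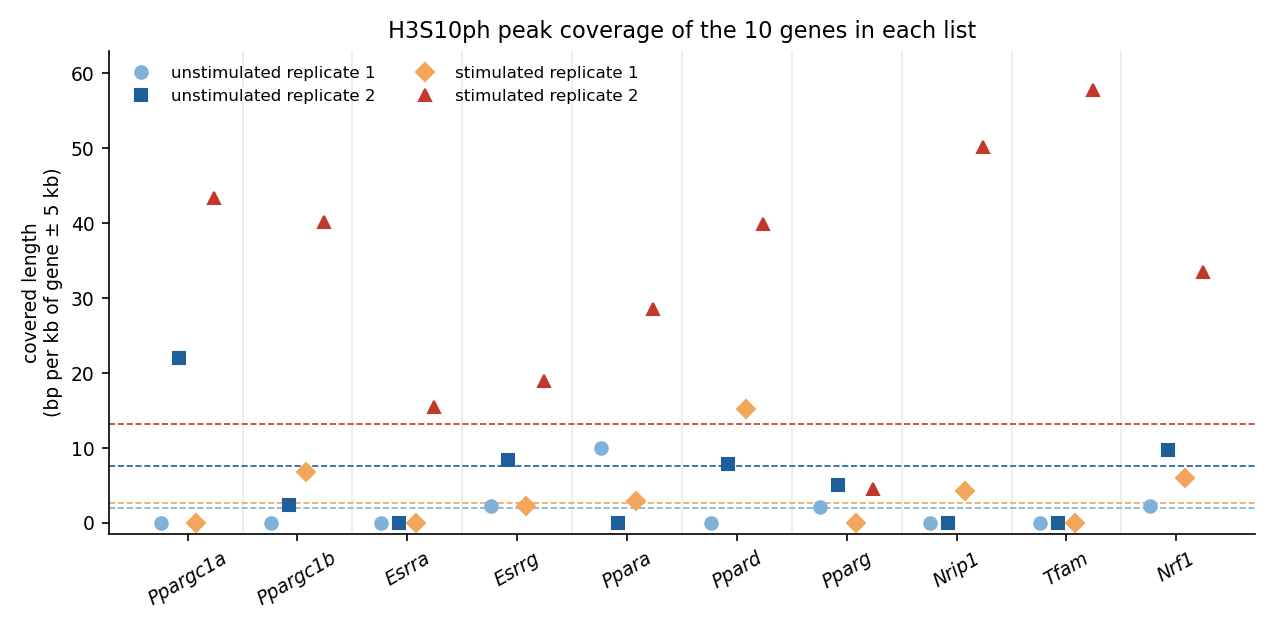
Covered length per kb of gene window (vertical axis, bp per kb, gene body and 5 kb on either side) of each of the 10 genes in the 4 lists, with dashed lines at the value of all autosomal gene windows in each list (1.96, 7.57, 2.63 and 13.2 bp per kb). The point of stimulated replicate 2 is the highest of its gene everywhere except at *Pparg*, and at *Ppargc1b*, *Ppard* and *Nrip1* both stimulated points lie above both unstimulated points.

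Of the coactivators, *Ppargc1a*, which encodes PGC-1α (chr5:51454250-51567726, minus strand), had 0 and 3 peaks in the unstimulated lists and 0 and 7 in the stimulated lists. They covered 0 and 2710 bp in unstimulated and 0 and 5348 bp in stimulated muscle, or 0, 21.9, 0 and 43.3 bp per kb. The conditions overlapped (mean 11.0 ± 15.5 against 21.7 ± 30.6 bp per kb, SD, n = 2), since both first replicates had no call at this gene. The coverage of 21.9 bp per kb in unstimulated replicate 2 was the highest of the 10 genes in an unstimulated list. One intronic peak there, 1652 bp wide, had the best rank of all peaks at the 10 genes in that list, 986.5 of 32740 by fold enrichment (3.01%, ties given their mean rank). The stretch of 1106 bp that it shares with stimulated replicate 2, at chr5:51514025-51515130, also overlaps the annotated gene *Gm43605* and ranked at 70.7% in stimulated replicate 2.

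*Ppargc1b*, which encodes PGC-1β (chr18:61298136-61400431, minus strand), had 0 and 1 peaks in the unstimulated lists and 1 and 8 in the stimulated lists. The covered length was 0 and 269 bp in unstimulated and 761 and 4502 bp in stimulated muscle. The groups did not overlap, at 1.20 ± 1.69 and 23.4 ± 23.6 bp per kb (SD, n = 2; exact permutation p = 0.333). The stimulated lists overlapped by 216 bp in an intron, at chr18:61363355-61363570, where neither unstimulated list had a peak. This stretch ranked at 62.4% and 14.6% of the stimulated lists, and the one unstimulated peak lay 2775 bp away from the nearest stimulated peak.

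The ERR genes differed in both size and pattern. *Esrra*, the ERRα gene and a short one (chr19:6910977-6921813, minus strand), had 1 peak in stimulated replicate 2 and 0 in the other 3 lists. That peak covered 323 bp and overlapped an exon. Its rank by fold enrichment, 87.7% of the list, was shared with the lowest-ranked peaks there of *Ppargc1b*, *Esrrg*, *Ppara*, *Nrip1* and *Nrf1*. The window of *Esrra* also takes in *Catsperz*, *Kcnk4*, *Prdx5* and *Trmt112*, none of which the peak itself overlapped.

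*Esrrg* encodes ERRγ, a receptor abundant in oxidative muscle, and at 606 kb (chr1:187608791-188214885, plus strand) is the longest of the 10 genes. The unstimulated lists held 3 and 8 peaks and the stimulated lists 3 and 20, covering 1371 and 5187 bp and 1406 and 11662 bp. Per kb this was 2.23, 8.42, 2.28 and 18.9 bp, or 1.13, 1.11, 0.867 and 1.43 times the value of all gene windows. The conditions overlapped (exact permutation p = 0.667 for 2 against 2 samples), and the values followed the length of the lists. A 348 bp peak in the first part of the gene, at chr1:187623146-187623493, ranked 360 of 10901 in stimulated replicate 1 with a fold of 2.69 and a −log10 p of 3.70. This peak also overlaps the annotated gene *Gm36388*. It was the only one of the 92 peaks with a −log10 q above 0, 1 of the 9 from a list in which 11.3% of peaks had one, and no peak of another list overlapped it.

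Of the PPAR genes, *Ppara*, which encodes the receptor that drives fatty acid oxidation (chr15:85734983-85802819, plus strand), had 1 peak in unstimulated replicate 1 and none in replicate 2, and 1 and 4 peaks in the stimulated lists. Its covered length was 783 and 0 bp against 232 and 2222 bp, so the conditions overlapped. This overlap rested on unstimulated replicate 1, the list that stood apart, and without it *Ppara* was at 0 bp against 232 and 2222 bp. The difference of the condition means, 10.7 bp per kb, turned to −5.03 at a −log10 p of at least 2.5. It was −3.54 with lists of equal length and −2.05 without stimulated replicate 2. The peak of stimulated replicate 1 lay in the upstream flank, 2622 bp from the nearest annotated protein-coding start, and 37222 bp from the nearest peak of stimulated replicate 2, so the stimulated lists did not mark the same place.

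*Ppard*, which encodes the PPAR most abundant in muscle fibres (chr17:28232700-28301474, plus strand), had 0 and 1 peaks in the unstimulated lists against 1 and 4 in the stimulated lists. They covered 0 and 619 bp against 1196 and 3140 bp, or 0, 7.86, 15.2 and 39.9 bp per kb. The groups did not overlap, at 3.93 ± 5.56 and 27.5 ± 17.4 bp per kb (SD, n = 2; exact permutation p = 0.333, the smallest possible). In stimulated replicate 1 this was 5.77 times the value of all gene windows, the largest such ratio of the 10 genes in that list. The stimulated lists overlapped by 351 bp at chr17:28270295-28270645, the stretch whose middle is printed above, with folds of 2.25 and 2.28 and ranks at 55.4% and 11.4% of the lists. The near edge of this peak in the 2 lists lay 629 and 1474 bp upstream of an annotated start of a shorter protein-coding transcript, inside the gene, and the unstimulated peak lay 9781 bp away. Of the printed window, 60% is G or C, above the median of 44.5% over the autosomal peaks of either stimulated list.

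*Pparg* encodes the adipocyte regulator PPARγ (chr6:115360951-115490399, plus strand). With all peaks counted, it alone of the 10 genes had a lower mean coverage in stimulated than in unstimulated muscle. Each unstimulated list held 1 peak and the stimulated lists held 0 and 2, covering 301 and 705 bp and 0 and 638 bp. The mean was 3.61 ± 2.05 bp per kb in unstimulated and 2.29 ± 3.24 bp per kb in stimulated muscle (SD, n = 2). This difference was smaller than the spread between replicates (exact permutation p = 0.667). Once peaks under a −log10 p of 2.5 were dropped, the difference at *Pparg* was −1.08 bp per kb. It was then also negative at *Ppargc1a* (−7.69) and *Ppara* (−5.03), and at no other of the 10 genes. At *Pparg* it turned to 0.129 without unstimulated replicate 2 and to 0.968 without stimulated replicate 1.

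*Nrip1*, which encodes the corepressor RIP140 (chr16:76287400-76373827, minus strand), held 0 peaks in both unstimulated lists against 1 and 7 in the stimulated lists. The stimulated peaks covered 411 and 4836 bp, or 4.26 and 50.2 bp per kb, which were 1.62 and 3.79 times the values of all gene windows. The groups did not overlap (exact permutation p = 0.333, the smallest possible). The nearest peaks of the stimulated lists were 3848 bp apart, so no position was shared, and all 8 peaks lay in introns. A peak below the threshold leaves no trace in a list, so the 0 stands for no call, and no fold is given against it.

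The mitochondrial regulators differed from each other. *Tfam*, whose product binds mitochondrial DNA (chr10:71225464-71238280, minus strand), had 1 peak in stimulated replicate 2 and 0 in the other 3 lists. It was 1319 bp wide, lay upstream of the gene with its near edge 1874 bp from the start, and gave 57.8 bp per kb in this short window. It ranked at 33.0% of the list by fold enrichment.

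*Nrf1* (chr6:30047988-30153458, plus strand) held 1 and 2 peaks in the unstimulated lists against 2 and 7 in the stimulated lists. Its covered length was 261 and 1130 bp against 700 and 3872 bp, or 2.26, 9.79, 6.06 and 33.5 bp per kb. The conditions overlapped, but in each list this was above the value of all gene windows, at 1.15, 1.29, 2.30 and 2.54 times that value. The best-ranked peak of the 10 genes in stimulated replicate 2 was at *Nrf1*, a 229 bp intronic peak at chr6:30138300-30138528 that ranked 1429 of 40683 (3.51%).

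**Figure D3:**
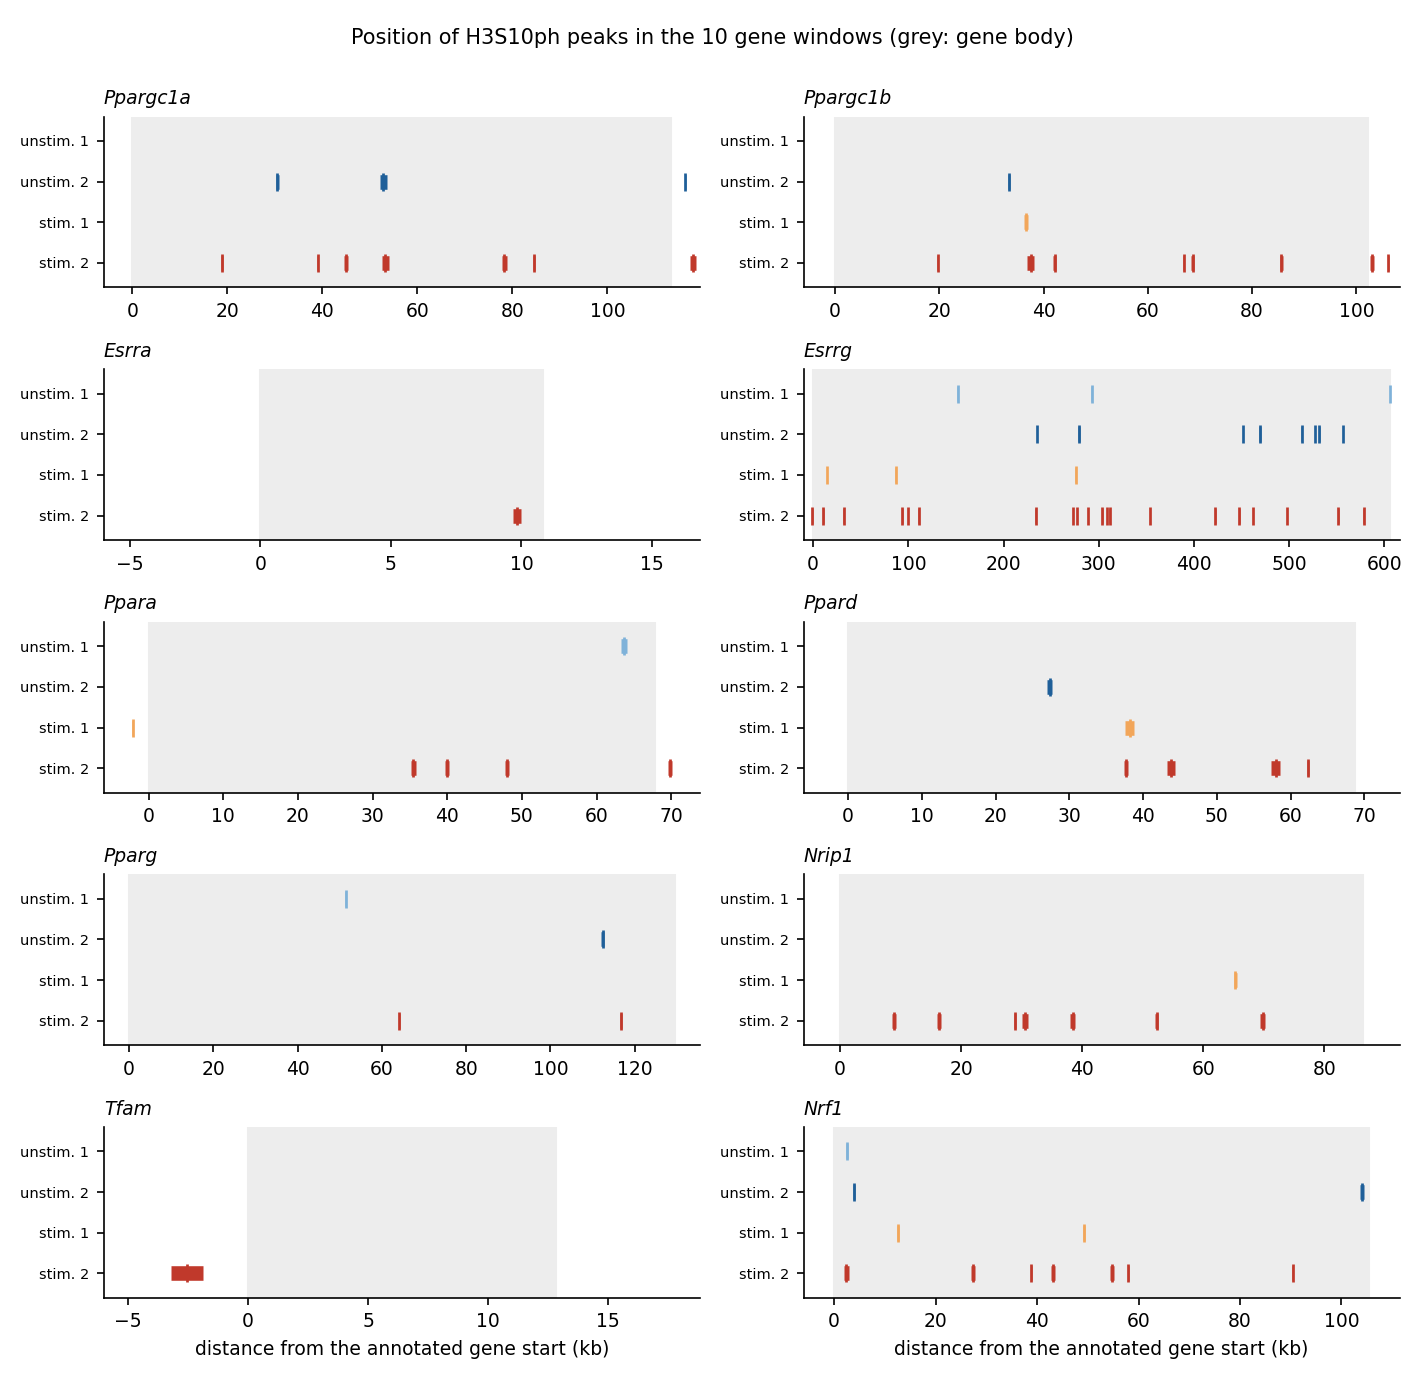
Position of every peak in the windows of the 10 genes, as distance in kb from the annotated gene start in the direction of transcription, with one row per list and the gene body in grey (narrow peaks are drawn at a minimum width so that they can be seen). Most marks of the 4 rows do not line up, the exceptions being *Ppard* and *Ppargc1b* between the stimulated lists, *Ppargc1a* between the second replicates, and *Nrf1* between unstimulated replicate 1 and stimulated replicate 2.

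Few of these peaks were called in more than 1 list, and few stood out by enrichment. Of the 10 genes, 2 had overlapping peaks in the stimulated lists, *Ppargc1b* and *Ppard*, beside 1.34% of all genes and 1.72% of the 50 to 150 kb class. At 0 of the 10 did the unstimulated lists overlap, beside 0.558% of all genes. *Ppargc1a* shared a position between unstimulated and stimulated replicate 2, as 2.89% of all genes did, and *Nrf1* between unstimulated replicate 1 and stimulated replicate 2, as 0.745% did. None of the 10 shared a position between stimulated replicate 1 and either unstimulated list, where 0.303% (replicate 1) and 0.976% (replicate 2) of all genes did. The genome-wide numbers of shared positions were 459 for the stimulated lists and 307 for the unstimulated lists. Across conditions they were 951 for both second replicates, the 2 longest lists, 439 for unstimulated replicate 2 with stimulated replicate 1, and 205 and 284 for unstimulated replicate 1 with stimulated replicates 1 and 2. The highest number came from the 2 longest lists and the lowest from the 2 shortest. No number expected from list length was computed, so these counts do not rank sharing between conditions against sharing within one.

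Column 7 of the lists, the fold enrichment over background, was read as a rank within each list because the folds come from separate calls. The 92 peaks had a median rank at 40.1% and 54.6% of the unstimulated lists and at 62.4% and 49.8% of the stimulated lists, where 50% is the middle of a list. In the top 10% of the lists there were 0, 2, 1 and 4 of them. Their best ranks were 1043 at *Esrrg* (11.5%), 986.5 at *Ppargc1a* (3.01%), 360 at *Esrrg* (3.30%) and 1429 at *Nrf1* (3.51%). Their median fold was 2.29, 2.07, 2.23 and 2.09, beside 2.25, 2.09, 2.27 and 2.09 over the whole lists. Their folds were thus close to those of the whole lists, and stimulated replicate 2 differed in their number. Only 19 of the 92 peaks had a −log10 p of at least 2.5, 4 of 6 and 2 of 16 in the unstimulated and 4 of 9 and 9 of 61 in the stimulated lists, beside 60.9%, 16.5%, 65.6% and 17.5% of all peaks. At least 3, the p of 0.001 named in the methods, was reached by 3 peaks, at *Esrrg* in both first replicates and at *Nrf1* in stimulated replicate 2. Of all peaks, 12.9% and 2.93% in the unstimulated and 17.7% and 3.22% in the stimulated lists reached it, so that such peaks were a larger share of both first replicates throughout.

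**Figure D4:**
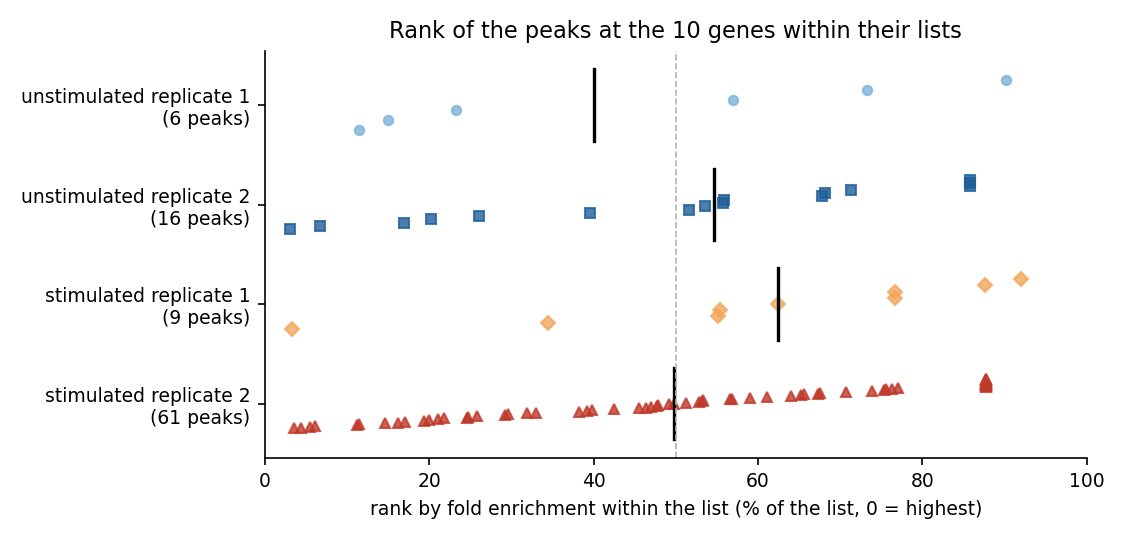
Rank by fold enrichment of each peak at the 10 genes within its own list, in percent of the list with the highest fold at 0 (horizontal axis), in 1 row per list, with vertical bars at the medians (40.1%, 54.6%, 62.4% and 49.8%) and a dashed line at 50%. Points within a row are spread vertically only to keep them apart, and they cover most of the range in every list.

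Gene bodies made up 92.9% of the windows, so the choice of windows largely sets how many peaks lie inside the genes. Of the 92, 76 were intronic, 8 overlapped an exon, 3 lay in the upstream flank and 5 in the downstream flank. An annotated protein-coding start was within 1000 bp of 4 peaks, 1 at *Ppard* in stimulated replicate 1 and 1 at *Esrrg* and 2 at *Nrf1* in stimulated replicate 2, and within 5000 bp of 15. The share of all peaks this close to a start was not counted, so these numbers have no background beside them. Widths ran from 218 to 1652 bp. The median GC content was 41.4%, 46.5%, 45.1% and 44.7%, so that in unstimulated replicate 1 it was again lower than in the other lists.

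Motifs were searched on both strands in the 300 bases around the centre of each of 92703 autosomal peaks. The response elements of the network itself, TCAAGGTCA for ERRs, the PPAR response element (2 direct repeats of the receptor site 1 base apart) and the palindromic NRF1 element, were in 0.699%, 0.0593% and 0.0248% of all peaks and in 0 of the 92. The cAMP response element TGACGTCA, through which CREB acts on *Ppargc1a*, was in 0.189% of all peaks and in 0 of the 92. The AP-1 element TGANTCA was in 4 of the 92 (4.35%), 2 at *Esrrg* in unstimulated replicate 2 and 1 each at *Ppara* and *Ppargc1b* in stimulated replicate 2, beside 8.94% of all peaks. A MEF2 box was in 1 (1.09%), at *Pparg* in unstimulated replicate 1, beside 0.633%. An SRF box, the element that serum response factor recognises, was in 5 (5.43%), beside 1.7% of all peaks, 2 in unstimulated and 3 in stimulated lists. Of these, 1 was at *Ppargc1a* in unstimulated replicate 2 and 1 at *Esrrg* in stimulated replicate 2. The other 3 lay at a single gene, and 2 of them overlap each other, so the 5 matches are not independent. These are matches of letters and not tested sites. In the 16 RefSeq promoters that matched 9 of the genes (250 bases before to 50 after the start, GRCm38.p6), the NRF1 element was found at *Ppara* (0.971% of all 32851 promoters hold it), and the AP-1 element (7.81%) and the MEF2 box (0.557%) at *Esrrg*. The SRF box (1.63%), the cAMP response element (1.79%), the ERR element (0.423%) and the PPAR element (0.0396%) were in 0 of the 16.

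Another 76 genes around the network were listed by role and not by how they moved, though earlier results of these data were known when they were listed. A peak was present at 17, 33, 16 and 59 of them in unstimulated replicates 1 and 2 and stimulated replicates 1 and 2 (22.4%, 43.4%, 21.1% and 77.6%), beside 14.2%, 41.4%, 21% and 55.3% of all genes. Their density was 1.43, 0.956, 1.37 and 2.13 times that of all gene windows. As at the 10 genes, the highest density was in stimulated replicate 2. Coverage was larger in both stimulated lists than in both unstimulated lists at 8 of the 76 (10.5%, beside 7.09% of all genes), and larger in both unstimulated lists at 2, *Cd36* and *Ogdh*, beside 1.8%. Both stimulated lists and neither unstimulated list held a peak at 3 (3.95%, beside 4.06%). These were *Pprc1*, which encodes the third PGC-1 family coactivator, *Prkaa1*, a catalytic subunit of AMP-activated kinase, and *Acsl1*, which activates long-chain fatty acids. Their coverage in the stimulated lists was 20.9 and 38.8, 13.9 and 9.06, and 14.5 and 21.9 bp per kb. The fatty acid transporter gene *Cd36* had the reverse pattern, 1 of the 76 beside 0.908% of all genes, with 1.89 and 10.6 bp per kb in unstimulated and 0 in both stimulated lists. Without unstimulated replicate 1, coverage was larger in both stimulated lists at 10 of the 76 (13.2%, beside 7.74% of all genes) and larger in unstimulated replicate 2 at 9 (11.8%, beside 21.1%), *Cd36* and *Ogdh* among them. Peaks in both stimulated lists alone were then at 5 (6.58%, beside 4.83%), *Prkaa2* and *Opa1* being added, and peaks in unstimulated replicate 2 alone at 4 (5.26%, beside 10.4%), *Cd36*, *Ssbp1*, *Fabp3* and *Uqcrc2*.

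The genes of the 76 with peaks in all 4 lists were *Ncoa2*, *Ppp3ca*, *Mef2a*, *Mef2c*, *Mfn1* and *Ogdh*. By role, the 14 genes of the respiratory chain and the tricarboxylic acid cycle, which are targets of the network, had peaks at 1, 2, 1 and 8 of them (7.14%, 14.3%, 7.14% and 57.1%) and the 16 fatty acid genes at 2, 7, 2 and 12 (12.5%, 43.8%, 12.5% and 75%). The 16 upstream regulators, kinases, phosphatases and factors that act on PGC-1α, had peaks at 7, 11, 5 and 16 (43.8%, 68.8%, 31.3% and 100%). Those regulators are longer genes, with windows of 1589 kb in sum against 423 kb and 584 kb for the target lists. In the 50 to 150 kb class, peaks were present at 25.6%, 68.7%, 33.8% and 82.4% of genes. The regulators fall in several length classes, so this class is not an exact match for them. Beside it, their share was higher in unstimulated replicate 1 and stimulated replicate 2. It was about level in unstimulated replicate 2 and lower in stimulated replicate 1. No difference between the roles was tested. Relative to all gene windows, their density was 2.40, 1.20, 1.45 and 2.23, beside 0.949, 0.737, 0.496 and 1.02 for the respiratory chain and cycle genes and 0.393, 1.06, 2.08 and 2.41 for the fatty acid genes.

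Within the 76, the genes with the same pattern of presence and the closest coverage over the 4 lists were named for each of the 10 with peaks in at least 2 lists. For *Nrip1* they were *Pprc1*, *Acsl1* and *Prkaa1* (distance 20.1, 30.0 and 42.2 bp per kb), and for *Ppargc1a* they were *Hadha*, *Hadhb* and *Mapk14* (8.76, 9.27 and 15.5 bp per kb). *Ncor1* and *Rxra*, a corepressor and the partner receptor of the PPARs, were nearest to *Ppargc1b* (8.06 and 14.3 bp per kb) and to *Ppard* (13.2 and 12.8 bp per kb), followed by *Esrrb*, the third ERR gene, at 38.6 and 40.8 bp per kb. *Rxra* had 0, 9.77, 10.6 and 51.7 bp per kb and *Ncor1* 0, 2.72, 6.22 and 48.1 bp per kb, so in both genes the stimulated values lay above the unstimulated ones, with a gap of less than 4 bp per kb between unstimulated replicate 2 and stimulated replicate 1. *Ncoa2*, another receptor coactivator, was nearest to both *Esrrg* and *Nrf1* (9.35 and 6.30 bp per kb), followed by *Mfn1* and *Mef2c* for *Esrrg* (17.3 and 17.6 bp per kb) and by *Ppp3ca* and *Mef2c* for *Nrf1* (7.96 and 24.9 bp per kb). For *Ppara* the pattern was shared by *Prkaa2* and *Opa1* (8.17 and 12.1 bp per kb), and for *Pparg* the nearest were *Atf2*, *Hdac4* and *Dnm1l* (13.0, 36.2 and 41.4 bp per kb).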

How the data were processed

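Per the submitters' processing notes, reads were mapped to mm10 with BWA 7.12, and peaks were called with MACS2 2.1.1. From the paper's methods, the authors discarded reads with several map positions, thinned replicates to equal read numbers, and used input DNA as control when calling broad peaks for each sample, without pooling. The deposited lists give a fold enrichment over background (a ratio) with −log10 values of the p-value and q-value for each peak. The deposited score column was not used. The methods give a p cutoff of 0.001, while weaker peaks, from a −log10 p of 2, are listed. The lists hold no counts, so depth is unknown, no counting interval can be given, and 2 samples per condition limit the precision.

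Gene bodies were those of GENCODE M21, and overlap with the gene or the 5 kb on either side by at least 1 bp counted. Of 21951 protein-coding genes, the 20807 autosomal ones served as background. Covered length was counted once where windows of different genes overlap in the sum over all gene windows. Computation used pandas 2.3.3, numpy 2.4.6 and scipy 1.17.1 under Python 3.11.15, with matplotlib 3.10.9 for figures, and the counting was tested on simulated peaks, where all 200 planted windows were recovered. Sequences came from the RefSeq genome GRCm38.p6, and the sequence of the position shared at *Nrf1* is not reported here.

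The 10 genes and the gene lists were chosen with earlier results of these data known. All 10 are named. Of the 76 network genes, those with a peak in both lists of 1 condition and none of the other, those with peaks in all 4 lists, and for each of the 10 with peaks in at least 2 lists at most 3 with the same presence and the nearest coverage (Euclidean distance of bp per kb) are named. Also named are the genes given under other observations. With unstimulated replicate 1 left out, genes present in every remaining list of 1 condition alone are named too. Alternatives were −log10 p of at least 2.5 or 3, lists of equal length, gene bodies alone or with 10 kb, a larger overlap, each sample left out, pairing by replicate number, and ranks by −log10 p.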

Additional observations from a re-analysis of the deposited data

How the results depend on the processing

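The ratio of stimulated to unstimulated relative density was above 1 under every alternative tried, from 1.28 to 2.31. It was 1.35 and 1.41 with peaks of −log10 p of at least 2.5 and 3, 1.52 with lists of equal length (0.986, 1.25, 1.37 and 2.03 in the lists), 1.61 with gene bodies alone and 1.50 with 10 kb on either side. The highest value, 2.31, came from leaving out *Esrrg*, an alternative chosen after seeing the data. At a −log10 p of at least 3, where 3 peaks remained, the 10 genes were below the average of all gene windows in every list (0.764, 0, 0.639 and 0.440 times). Leaving out each sample gave ratios of 0.818 to 5.83 for peak number, 0.706 to 7.84 for covered length and 1.28 to 2.06 for relative density. The ratios of peak number and covered length were below 1 only without stimulated replicate 2, and the covered length ratio was 7.84 without unstimulated replicate 2.

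Genes with a peak in both stimulated lists and no unstimulated list numbered 1, and 2 at a −log10 p of at least 2.5 (*Ppard* and *Nrip1*), 0 at 3, and 3 with lists of equal length (*Ppargc1b*, *Ppard* and *Nrip1*), with 1 to 3 when a sample was left out. The reverse pattern numbered 0, and 1 with lists of equal length (*Pparg*), with 0 to 1 when a sample was left out. Genes more covered in both stimulated lists numbered 3, and 3 at a −log10 p of at least 2.5 (*Esrrg* in place of *Ppargc1b*), 0 at 3 and 4 with lists of equal length (*Esrrg* added), with 3 to 9 when a sample was left out, the 9 being without stimulated replicate 1. Genes more covered in both unstimulated lists numbered 0, and 1 with lists of equal length, with 0 to 1 when a sample was left out. The share of all genes with these patterns was counted for the main lists and without unstimulated replicate 1. Under the other alternatives it was not counted, so those numbers have no background beside them. Leaving out a sample loosens these rules, so by construction those numbers can only stay or rise. With fewer peaks the numbers can move either way, and why they moved was not tested. *Ppargc1b*, *Ppard*, *Nrip1* and *Nrf1* turned direction under none of the 12 alternatives, though the first 3 had no peak left at a −log10 p of at least 3. Pairing by replicate number and leaving out *Esrrg* keep the difference of a single gene by construction. These alternatives were therefore no test of a gene's direction. *Tfam* had no difference left under 5 of the 12 and *Esrra* under 4. *Ppargc1a* turned under 4, *Ppara* under 3, *Pparg* under 2, and *Esrra* and *Esrrg* under 1 each. Ranks by −log10 p gave the same medians within 4 percentage points.

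The replicate block, stimulated against unstimulated within replicate numbers, gave ratios of 2.66 for peak number, 2.65 for covered length and 1.67 for relative density. In both pairs 5 genes were more covered (*Esrrg* and *Nrf1* being added) and 1 less covered (*Pparg*). Of all genes, 18.1% were more covered in the first pair and 45.3% in the second, and the share for both pairs together was not counted. The deviations of same-numbered samples from their condition means correlated at 0.0363 across genes, and although the conditions share mice, no source ties the numbers to the same mice, so the pairing rests on a shared number only. The lists give no depth, and a gene without a call may lie just under the threshold of its list.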

Other observations

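Outside the 10 genes, the network gene with the highest coverage in stimulated replicate 1 was *Pdk4*, which encodes the kinase that turns muscle from glucose to fatty acid use, and it was singled out after its values were seen. Its window of 23.0 kb held 0 and 1 peaks in the unstimulated lists against 1 and 4 in the stimulated lists. They covered 0 and 21.6 bp per kb against 91.7 and 105.7 bp per kb, so the conditions did not overlap (exact permutation p = 0.333, the smallest that 2 against 2 samples allow, and 1 after Benjamini-Hochberg adjustment over 20807 genes). *Vegfa*, which encodes the angiogenic growth factor, had the highest value of the 76 network genes in stimulated replicate 2, 208.1 bp per kb with 5 peaks, but 0 in stimulated replicate 1 and 0 and 47.1 bp per kb in unstimulated muscle, so its conditions overlapped. It was likewise chosen after its values were seen. All 5 genes listed as other exercise targets, *Vegfa*, *Fndc5*, *Slc2a4*, *Tfrc* and *Mb*, had a peak in stimulated replicate 2 (beside 55.3% of all genes) and none in stimulated replicate 1 (beside 21%), and peaks at 0 and 2 of the 5 in the unstimulated lists (beside 14.2% and 41.4%).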
